A study of Mus musculus with 25 samples.

Results

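The 10 genes described here, Hspa5, Hsp90b1, Xbp1, Herpud1, Sdf2l1, Dnajb9, Pdia4, Creld2, Manf and Hyou1, are known targets of the unfolded protein response of the endoplasmic reticulum. They were chosen by name, and each matched 1 of the 17007 genes of the deposited count table, so all 10 could be followed in every library. Polyadenylated RNA of the mouse duodenum, the first stretch of the small intestine, had been sequenced in 25 libraries in 5 groups. All mice were male and aged 8 weeks at the start, and each diet lasted 8 weeks. WT_Con was 4 libraries of C57BL/6N mice on control diet. WT_Half was 7 libraries of the same strain on a diet with 2.5% ethanol plus 2 g/kg ethanol by gavage, given 2 times a week. WT_Full was 4 libraries of that strain on 5% ethanol with gavages of 4 g/kg at the same frequency. KI_Con (4 libraries) and KI_Half (6 libraries) came from Aldh2KI mice on control diet and on the 2.5% regimen. The knock-in allele of Aldh2, the mitochondrial aldehyde dehydrogenase gene, is not described further in the labels, and no knock-in mice on 5% ethanol were analysed here. The design text places sampling 9 hours after a last gavage of 5 g/kg and does not say whether both ethanol regimens ended with it. Long exposure and a recent large dose therefore cannot be told apart. The labels do not say whether control mice were gavaged. Nothing in the labels says that the libraries of a group came from separate animals, so p-values measure only the spread between libraries.

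Cells that secrete much protein fold it in the endoplasmic reticulum with chaperones, and misfolded protein there activates the sensors IRE1, PERK and ATF6. IRE1 splices the messenger of Xbp1 into a form that encodes an active transcription factor, ATF6 is cut into one, and PERK slows translation and raises ATF4. Together these factors induce chaperones, disulfide isomerases and the machinery that returns misfolded protein to the cytosol for degradation. In the duodenum the secretory cells include the mucous Brunner glands under the epithelium, goblet cells, Paneth cells and the plasma cells of the lamina propria. Gene counts do not separate spliced from unspliced Xbp1, and no measure of sensor activity was made here.

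ATF6, with the factor NF-Y, is known to bind the endoplasmic reticulum stress element, which reads CCAAT, any 9 bases, then CCACG. A shorter form, ERSE-II, reads ATTGG, any 1 base, then CCACG. The 250 bases before the transcription start were searched on both strands in the RefSeq promoter table of build GRCm38.p6, where 8 of the 10 genes matched, and Manf and Hyou1 were not among them. The matches are shown because they are the sequence feature by which these genes are commonly recognised. Capitals mark the element with its spacer, and each sequence reads 5′ to 3′ on the strand of its gene.

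Hspa5: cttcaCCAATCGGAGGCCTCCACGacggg
Hsp90b1, farther copy: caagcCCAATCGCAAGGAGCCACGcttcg
Hsp90b1, nearer copy: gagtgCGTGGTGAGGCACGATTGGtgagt
Creld2: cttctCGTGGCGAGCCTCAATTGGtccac
Herpud1, ERSE-II: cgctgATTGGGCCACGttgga

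The coordinates below are of the printed stretches, with 5 bases on each side of the element, and the distances are of the element alone. The Hspa5 stretch is chr2:34772020-34772048 (plus strand), with the element 65 to 47 bases before the RefSeq start, within an untranslated exon of the longer Hspa5 model in GENCODE M21. Hsp90b1 had a copy in the same orientation 212 to 194 bases before its start (stretch chr10:86705633-86705661, minus strand). The nearer copy, in reverse, was 107 to 89 bases before the start (stretch chr10:86705528-86705556). In Creld2 the element was also in reverse, 126 to 108 bases before the start (stretch chr15:88819515-88819543, plus strand), and like both Hsp90b1 copies it was between annotated genes. The Herpud1 ERSE-II lay 52 to 42 bases before the start (stretch chr8:94386372-94386392, plus strand), inside Gm15890, a gene annotated on the opposite strand. The full element was found in 3 of the 8 promoters, against 0.113% of all 32851 promoter windows, and ERSE-II in 1 of 8, against 0.0304%. The third motif, TGACGTGG, the core of an element bound by XBP1, was in none of the 8 and in 0.563% of all windows. Any of the 3 motifs occurred in 4 of the 8, against 0.697% of windows. These are matches of letters and no binding was measured. The genes were chosen as known targets of the response that acts through these elements, so the shares are a description and no test.

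In GENCODE M21 on GRCm38 the BiP gene Hspa5 (ENSMUSG00000026864) lies at chr2:34771970-34777547 and Hyou1 (ENSMUSG00000032115) at chr9:44379490-44392369. Hsp90b1 (ENSMUSG00000020048) lies at chr10:86690209-86705509, Sdf2l1 (ENSMUSG00000022769) at chr16:17130138-17132383 and Pdia4 (ENSMUSG00000025823) at chr6:47796141-47813430. Creld2 (ENSMUSG00000023272) is at chr15:88819646-88826683 and Manf (ENSMUSG00000032575) at chr9:106838312-106891979. Xbp1 (ENSMUSG00000020484) is at chr11:5520659-5525893, Herpud1 (ENSMUSG00000031770) at chr8:94386438-94395377 and Dnajb9 (ENSMUSG00000014905) at chr12:44205559-44210326. Exons of other genes on the opposite strand overlap 10.3% of the exon bases of Hsp90b1 (1810014B01Rik) and, in Manf, 4.71% (4930524O07Rik) and 4.14% (Dcaf1). The strand setting of the counting is unknown, so reads from these stretches cannot be assigned with certainty.

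The smallest library held 24.6 M (mega) counts and the largest 44.8 M, and levels are given as counts per M counts (CPM). Apart from the members, the libraries differed in the tissue they held. Muc6, the gel-forming mucin that marks Brunner glands, was between 6.73 and 21400 CPM, and Tff2 and Gkn3 of the same glands moved over similar ranges. The summed level of 13 pancreatic acinar genes (of 15 listed) was 2950, 24.5, 2240 and 281 CPM in WT_Con libraries 1 to 4 and 5940, 2070, 38.1 and 36.3 CPM in KI_Con libraries 1 to 4. It was between 23.3 and 109 CPM in all 17 libraries of ethanol-fed mice. Summed plasma cell markers other than Xbp1 ran from 7010 to 9350 CPM in KI_Con and from 1450 to 5830 CPM in KI_Half, without overlap. Summed goblet cell markers likewise did not overlap between KI_Con (7440 to 11600 CPM) and KI_Half (5390 to 6990 CPM). The mean log2 level of the same 7 genes did overlap, at 8.68 to 9.326 in KI_Con and 8.677 to 8.976 in KI_Half. The summed goblet cell markers overlapped between the wild-type groups, at 3800 to 10900 CPM in WT_Con, 3950 to 7800 in WT_Half and 4910 to 9870 in WT_Full. Paneth cell markers overlapped between KI_Con (192 to 519 CPM) and KI_Half (172 to 948 CPM), and enterocyte markers between all groups, from 15300 to 45100 CPM over the 25 libraries. The part of goblet and Paneth cell content in the members' values was not tested. In whole tissue, fewer cells of a type and less RNA per cell cannot be told apart, and this holds for every value below.

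Per kb of exon, Hspa5 had the highest mean level of the members, 195 CPM per kb. It encodes BiP, the HSP70 chaperone of the endoplasmic reticulum that binds unfolded chains and holds the sensors inactive. Hsp90b1, which encodes the HSP90 of the endoplasmic reticulum, followed at 96.3 CPM per kb, then Xbp1 at 92.8 and Herpud1 at 78.0. Sdf2l1, Creld2, Pdia4 and Manf were close together at 58.3, 55.1, 54.6 and 51.4 CPM per kb. Hyou1, a large HSP70-like exchange factor of BiP, had 33.8 CPM per kb and Dnajb9 had the lowest mean, 23.9 CPM per kb. From the lowest to the highest library the CPM level differed by 2.40-fold for Manf and by 6.56-fold for Sdf2l1, and the other members fell between.

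**Figure D1:**
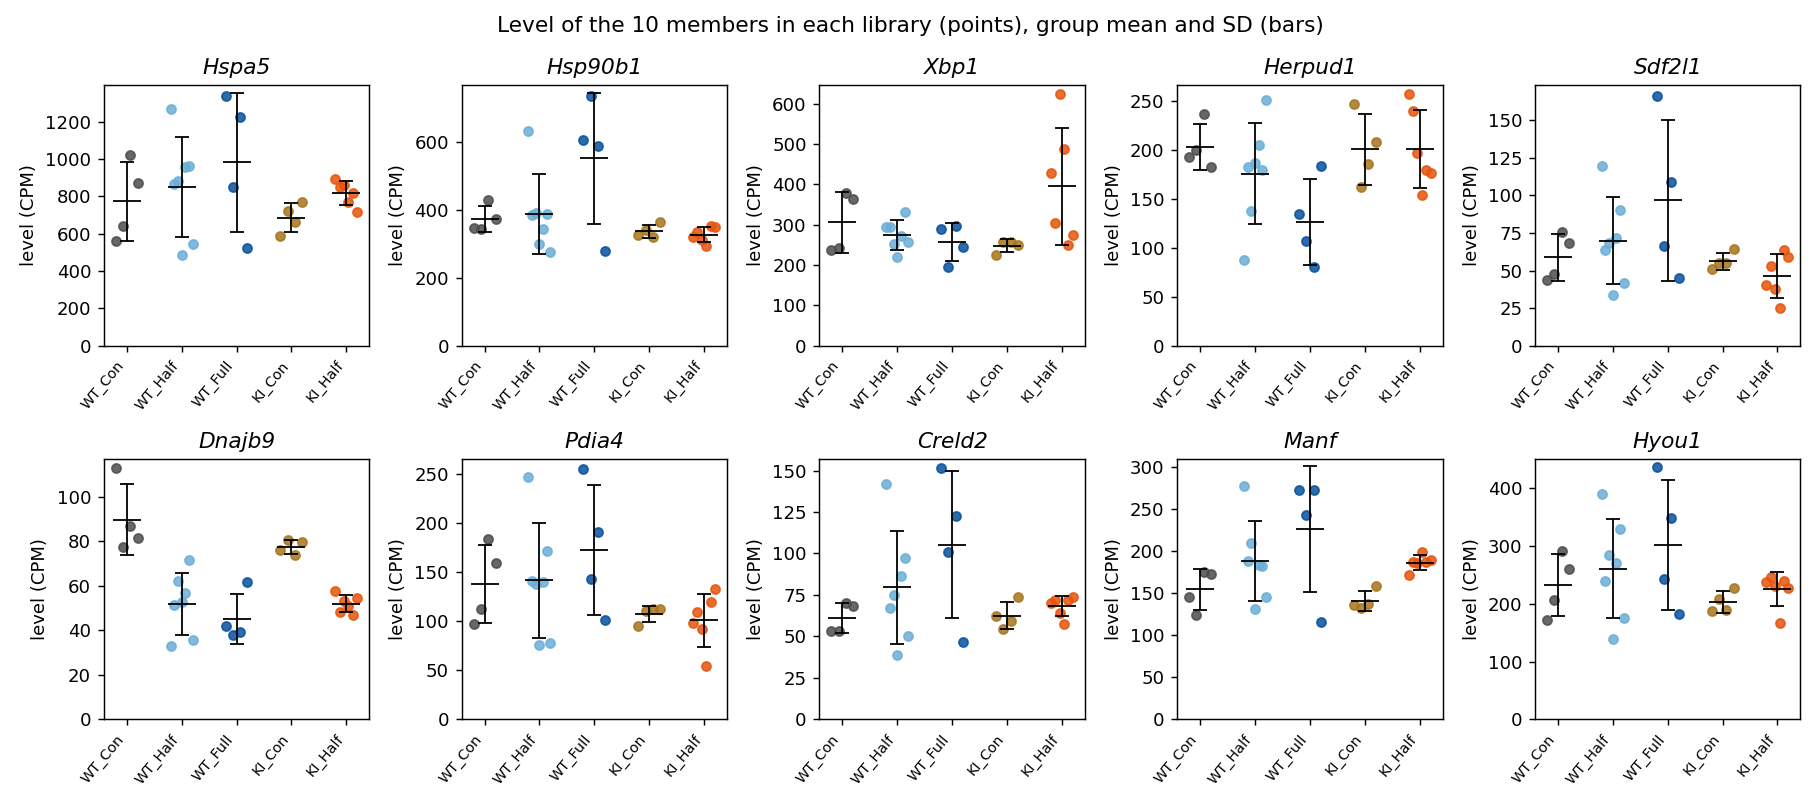
Level of each of the 10 genes in CPM (vertical axis, from 0) in every library (points) of the 5 groups, with the group mean and SD (bars). Dnajb9 in the 3 ethanol groups lies below 72 CPM and in both control groups above 74 CPM. Hspa5, Hsp90b1, Sdf2l1, Pdia4, Creld2, Manf and Hyou1 spread widely in WT_Half and WT_Full, and Xbp1 reaches its highest values in 3 KI_Half libraries.

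Among the chaperones and their partners, group means are given in the order WT_Con, WT_Half, WT_Full, KI_Con and KI_Half, each ± SD over 4, 7, 4, 4 and 6 libraries. Hspa5 had means of 774 ± 212, 852 ± 267, 982 ± 371, 685 ± 77.8 and 817 ± 65.5 CPM. For Hyou1 the means were 232 ± 53.3, 261 ± 86.2, 302 ± 112, 203 ± 18.9 and 225 ± 29.4 CPM. Hsp90b1 was at 373 ± 38.8, 387 ± 117, 551 ± 192, 337 ± 19.1 and 327 ± 22.9 CPM. All 3 had their highest mean and their largest SD in WT_Full. Sdf2l1 encodes a protein that works with BiP and its J-domain partners, and its means were 58.8 ± 15.6, 69.8 ± 29.0, 96.7 ± 53.5, 56.3 ± 5.61 and 46.5 ± 14.6 CPM. Pdia4, a protein disulfide isomerase, stood at 138 ± 40.0, 142 ± 58.4, 173 ± 66.2, 108 ± 8.31 and 101 ± 27.2 CPM. Creld2, an endoplasmic reticulum protein with EGF-like repeats, had 61.1 ± 9.23, 79.6 ± 33.9, 105 ± 44.4, 62.4 ± 8.14 and 68.3 ± 6.17 CPM. WT_Full had the highest mean for each of these 6 genes, and none of their differences between groups passed the edgeR test described below.

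Manf, a small secreted protein that binds BiP, had means of 155 ± 24.4, 188 ± 47.2, 226 ± 74.9, 141 ± 11.7 and 187 ± 8.86 CPM in the same order. Herpud1 sits in the membrane of the endoplasmic reticulum and helps assemble the degradation complex there. Its means were 202 ± 23.4, 176 ± 51.4, 126 ± 44.0, 200 ± 35.8 and 200 ± 39.9 CPM, lowest in WT_Full and nearly equal in both control groups and KI_Half. Dnajb9 encodes ERdj4, a J-domain cochaperone that brings BiP to the sensor IRE1 and to misfolded clients, and had means of 89.8 ± 16, 51.9 ± 13.8, 45.1 ± 11.2, 77.6 ± 3.05 and 52.0 ± 3.91 CPM. Its order therefore ran WT_Con, KI_Con, KI_Half, WT_Half and WT_Full, with a gap between the control groups and the ethanol groups. Xbp1, the transcription factor, had means of 306 ± 76.2, 274 ± 36.5, 257 ± 47.4, 248 ± 15.4 and 395 ± 146 CPM, highest in KI_Half.

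With the group means removed, 7 of the 10 genes varied together between the 25 libraries. Hspa5, Hsp90b1, Sdf2l1, Pdia4, Creld2, Manf and Hyou1 had Pearson correlations of 0.72 to 0.97 among their 21 pairs. These 7 were grouped after seeing the data and are not a class by function, since Dnajb9 is also a cochaperone. Against Hspa5, Hyou1 had r = 0.94 and rho = 0.93 (r = 0.92 without WT_Full library 4 and WT_Half library 4, the most distant from the median of Hspa5). Creld2 had r = 0.91 and rho = 0.84 (0.85 without both), and Hsp90b1 r = 0.77 and rho = 0.66 (0.64 without both). The 7 genes were high together in WT_Half library 1 and low together in WT_Half libraries 4 and 7 and in WT_Full library 4. The other 3 members did not join them. Herpud1 had r from -0.68 to -0.38 with the 7, and Dnajb9 had r from -0.46 to -0.18. By rank the Herpud1 values were weaker, from rho = -0.52 with Manf to -0.20 with Pdia4. Herpud1 against Hspa5 was r = -0.48 and rho = -0.21, and r = -0.37 without WT_Full library 4 and WT_Half library 4. Dnajb9 against Hspa5 was r = -0.24 and rho = -0.10, and r = -0.04 without those 2 libraries, so its negative value rests on them. Xbp1 had r from 0.04 to 0.48 with the 7. The points of these correlations share depth and tissue content within a library, and they are a description without a test.

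**Figure D2:**
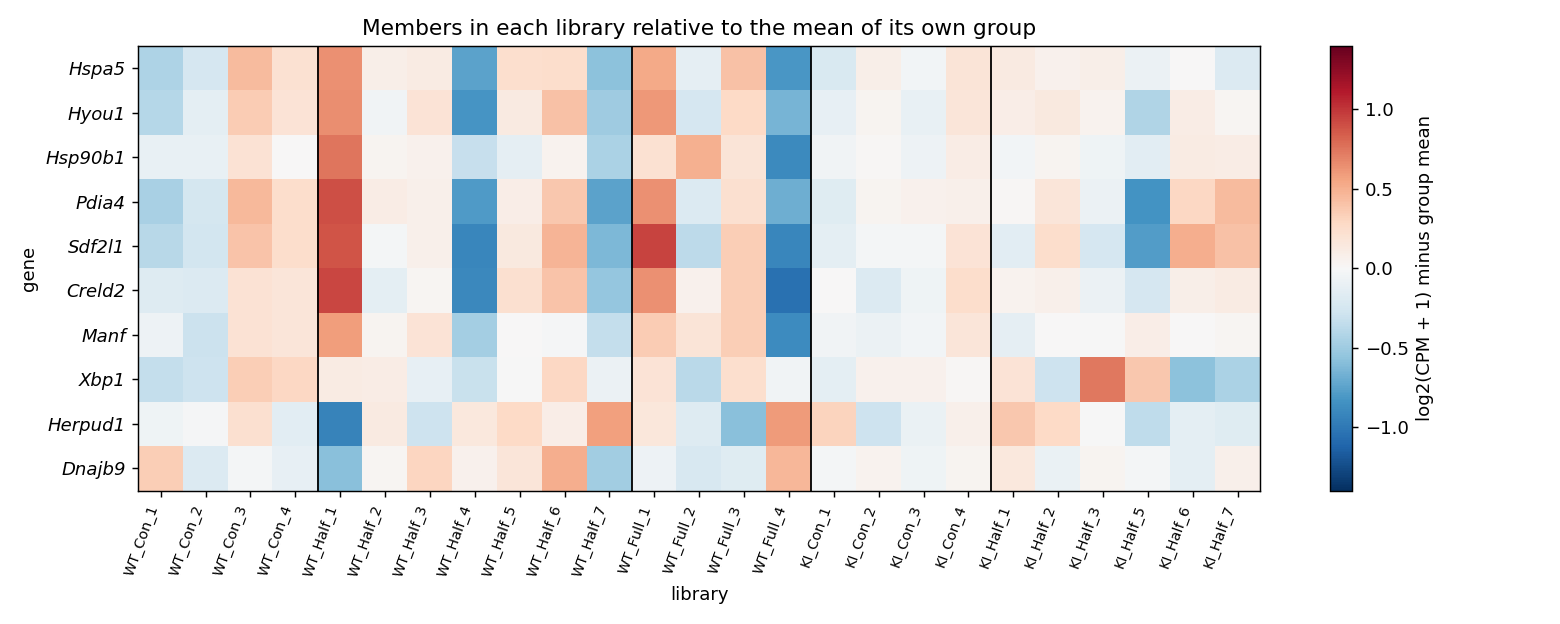
Each of the 10 genes (rows) in each of the 25 libraries (columns) as log2(CPM + 1) minus the mean of its own group, red above and blue below the group mean, with lines between the groups. The 7 upper rows change colour together, most in WT_Half library 1 and WT_Full library 4, where Herpud1 and Dnajb9 take the opposite colour, and the knock-in libraries are paler apart from Xbp1 and from Pdia4 and Sdf2l1 in KI_Half library 5.

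In WT_Half library 1, Hspa5 was at 1271, Hsp90b1 at 630, Pdia4 at 247 and Creld2 at 142 CPM, each the highest of its group. The same library had the lowest Herpud1 and Dnajb9 levels of its group, 87.7 and 33.1 CPM. It also had the lowest summed enterocyte markers (18100 CPM) and the lowest summed plasma cell markers (1870 CPM, without Xbp1) of its group. WT_Full library 4 was the reverse case. There Hspa5 was at 522, Hsp90b1 at 279, Pdia4 at 102 and Creld2 at 46.5 CPM, each the lowest of its group. Herpud1 and Dnajb9 had their group maximum in it, 183 and 61.7 CPM. Summed enterocyte markers were 45100 CPM, the highest of all 25 libraries, and plasma cell markers 5340 CPM, the highest of its group. The part of tissue content in these patterns was not tested.

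Outside the members, the 6 genes closest to the mean of the 10 members, of 13444 genes compared over the 25 libraries, were Calr (r = 0.927), Uggt1 (0.883), Plpp5 (0.864), Dnajb11 (0.862), Sec23b (0.857) and Scfd2 (0.853). Calr encodes calreticulin, a lectin chaperone, Uggt1 the glucosyltransferase that returns unfolded glycoproteins to it, Dnajb11 a J-domain partner of BiP, and Sec23b a coat protein of vesicles that leave the endoplasmic reticulum. Of these 6, 4 were in the lists of related genes chosen for this work.

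The effect of the stronger ethanol regimen was asked first, in WT_Full vs WT_Con. By edgeR's quasi-likelihood test with Benjamini-Hochberg adjustment, 0 of the 10 genes passed an adjusted p of 0.05, where 0.00592% of 16882 genes passed. At an unadjusted p under 0.05 there were 3 members (Herpud1, Dnajb9 and Creld2), or 17.8% of all genes. The members' median log2 difference was 0.38, against -0.00 over all genes, with 7 values above and 3 below 0. The 7 above 0 were the 7 genes that varied together between libraries, and the 3 below were Xbp1, Herpud1 and Dnajb9. The 7 were grouped after seeing these same libraries, so this is a description.

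Dnajb9 was at 113, 77.4, 87.0 and 81.8 CPM in WT_Con libraries 1 to 4 and at 41.9, 37.7, 39.2 and 61.7 CPM in WT_Full libraries 1 to 4. Every WT_Full library was below every WT_Con library, as was so for 3.78% of all genes in that direction. Its log2 difference was -0.99 ± 0.20 (SE), with an edgeR adjusted p of 0.129. Dnajb9 was called lower by DESeq2 (adjusted p 0.00179, 1 member called beside 5.62% of all genes), by 1 edgeR fit of all 25 libraries (adjusted p 0.00635, 1 member, 7.58%) and by limma-voom (adjusted p 0.0251, with Herpud1, 8.35%). The authors' deposited table, made from the same counts, gave a log2 fold change of -0.99 and an adjusted p of 0.000178 for Dnajb9. There 1952 of 16982 genes had an adjusted p under 0.05, and Dnajb9 was the only member among them. With the summed plasma cell markers as a covariate the difference was -0.88 (edgeR adjusted p 0.445). With the acinar markers as a covariate it was -0.72 (edgeR adjusted p 0.74). Both fits called 0 members and 0% of all genes, so the lack of a call is not particular to Dnajb9. Plasma cell markers were at 1130, 1220, 4640 and 5340 CPM in WT_Full libraries 1 to 4, against 3980 to 9380 CPM in WT_Con. Libraries 3 and 4 were thus within the control range of these markers, with Dnajb9 at 39.2 and 61.7 CPM. The part of plasma cell content in the Dnajb9 levels of single libraries was not tested.

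Herpud1 was at 193, 199, 236 and 182 CPM in WT_Con and at 135, 106, 80.3 and 183 CPM in WT_Full. The groups met only through WT_Full library 4, and the log2 difference was -0.68 ± 0.23 with an edgeR adjusted p of 0.211. Creld2 was at 53.3, 53.0, 69.95 and 68.2 CPM in WT_Con and at 152, 101, 123 and 46.5 CPM in WT_Full. Here too 3 WT_Full libraries were above every WT_Con library and library 4 was below all of them, with a log2 difference of 0.80 ± 0.32 and an edgeR adjusted p of 0.244. Hsp90b1 showed the same picture, at 345, 344, 427 and 373 CPM in WT_Con and 604, 733, 587 and 279 CPM in WT_Full, with a log2 difference of 0.57 ± 0.27 and an edgeR adjusted p of 0.305. Manf was at 146, 124, 176 and 173 CPM in WT_Con and 273, 243, 273 and 116 CPM in WT_Full (log2 difference 0.56 ± 0.27, edgeR adjusted p 0.312). Without WT_Full library 4, edgeR called Hsp90b1 (0.81), Creld2 (1.05) and Manf (0.79) higher and Herpud1 (-0.90) and Dnajb9 (-1.16) lower, 5 of the 10 members, where 12.2% of all genes passed. Their adjusted p-values in that fit ran from 0.00803 for Dnajb9 to 0.0232 for Herpud1. These 5 calls rest on leaving out a library whose values for them lay at the end of its group.

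Hspa5 in WT_Full was at 1337, 848, 1223 and 522 CPM, around the 559, 641, 1022 and 873 CPM of WT_Con, with a log2 difference of 0.36 and a 95% interval from -0.37 to 1.08. The interval for Sdf2l1 ran from -0.12 to 1.59, for Hyou1 from -0.25 to 1.04, for Pdia4 from -0.35 to 1.02 and for Xbp1 from -0.73 to 0.25. These intervals hold both no difference and, for all but Xbp1, a doubling, so 4 libraries a side did not settle the direction of these 5 genes.

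**Figure D3:**
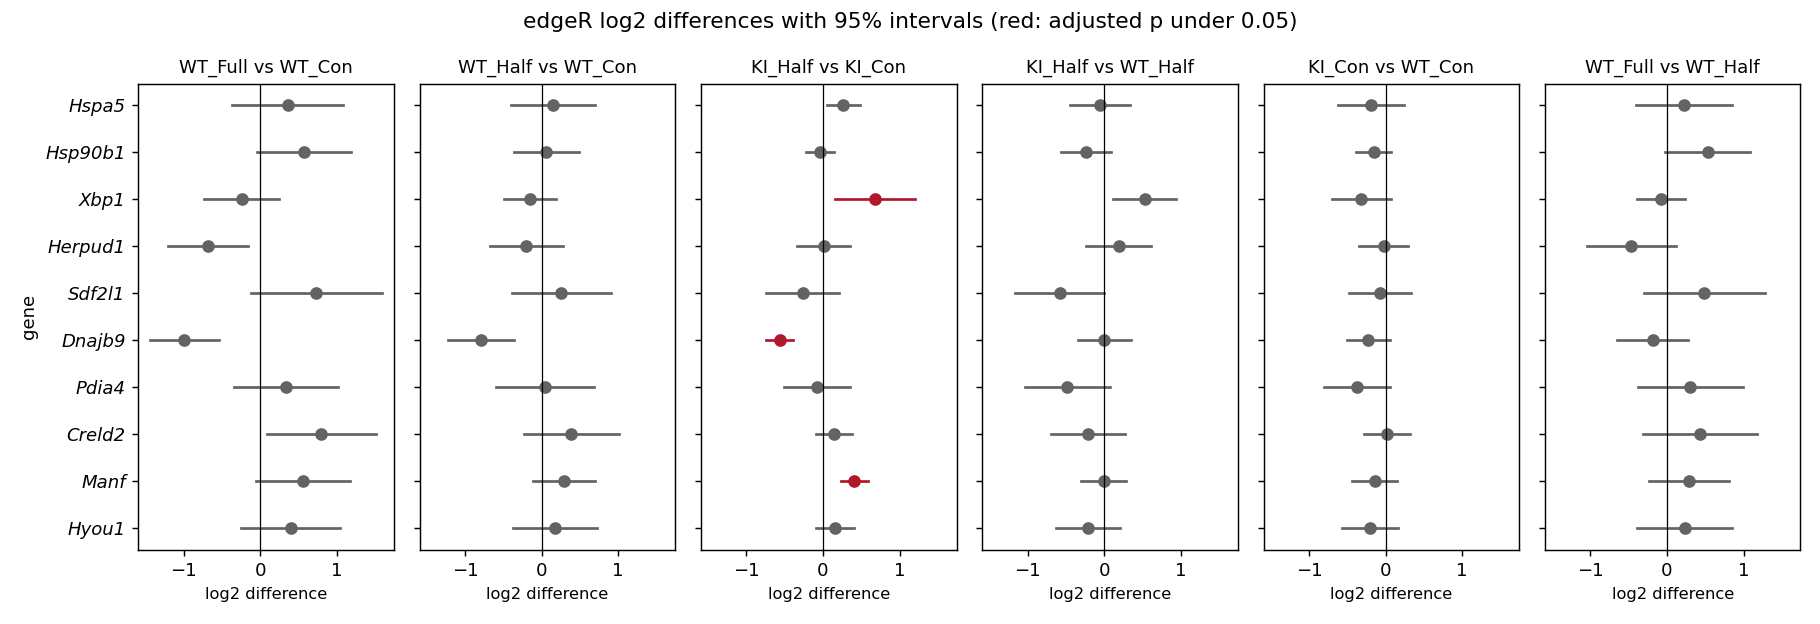
Log2 differences from edgeR (points) with 95% intervals (lines) for the 10 genes in the 6 comparisons between groups, red where the adjusted p was under 0.05. Dnajb9 lies left of 0 with its whole interval in all 3 ethanol against control panels, and the only red points are Xbp1, Dnajb9 and Manf in KI_Half vs KI_Con.

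For the weaker regimen in the same strain, WT_Half vs WT_Con, edgeR again called 0 of the 10 members, where 1.47% of 16993 genes passed. The members' median log2 difference was 0.10, against -0.00 over all genes, and 1 member had an unadjusted p under 0.05 (21.8% of all genes). That gene was Dnajb9. Its levels in WT_Half ran from 33.1 to 71.8 CPM with a median of 52.6 CPM. All 7 libraries were below the lowest WT_Con library at 77.4 CPM, a separation seen for 2.17% of genes in that direction. The log2 difference was -0.79 ± 0.20 with an edgeR adjusted p of 0.0643, and DESeq2 (adjusted p 0.00913, 1 member, 8.67% of genes), the fit of all 25 libraries (adjusted p 0.00902, 1 member, 4.23%) and limma-voom (adjusted p 0.0316, 1 member, 7.25%) called it lower. EdgeR called it too without WT_Half library 6, at -0.89 with an adjusted p of 0.0385 (1 member, 2.63% of genes). That library had the highest Dnajb9 level of its group. With the plasma cell covariate Dnajb9 was at -0.62 (edgeR adjusted p 0.455), and 0 members and 0.106% of genes were called. With the acinar covariate it was at -0.69 (edgeR adjusted p 0.306), and 0 members and 0.0118% of genes were called. Without WT_Con libraries 1, 3 and 4, all rich in acinar markers, the difference was -0.58 in WT_Half and -0.77 in WT_Full. That fit has a single control library, which is assumed to vary like the other group. The remaining 9 members had intervals that held 0, and the widest, for Sdf2l1, ran from -0.39 to 0.91.

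WT_Full vs WT_Half, which sets the 2 regimens side by side, gave 0 of 10 members and 0% of 16967 genes past the threshold in edgeR. No member had an unadjusted p under 0.05, and 4.60% of all genes did. DESeq2 called 0 members and 0.1% of genes. The largest difference was 0.53 ± 0.26 for Hsp90b1, with an interval from -0.03 to 1.09. For Dnajb9 it was -0.19 ± 0.22, with an interval from -0.65 to 0.28, so a further drop at the stronger regimen was not detected and one of up to 0.65 was not excluded by the interval.

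In the knock-in mice 3 of the 10 members passed the test. KI_Half vs KI_Con gave Manf and Xbp1 as higher and Dnajb9 as lower in edgeR, where 37.9% of 16944 genes passed, 20% higher and 17.9% lower. A share of 3 in 10 is near that background. The members' median log2 difference was 0.07, against 0.00 over all genes. DESeq2 called Hspa5 as well, which made 4 members beside 41.7% of all genes.

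Dnajb9 was at 76.0, 80.5, 74.1 and 79.8 CPM in KI_Con libraries 1 to 4. KI_Half ran from 47.1 to 57.5 CPM with a median of 52.1 CPM, and no library reached the control range, a separation found for 13.9% of genes in that direction. The log2 difference was -0.57 ± 0.08 with an edgeR adjusted p of 0.000733, the smallest SE of the 3 ethanol comparisons. KI_Con libraries 3 and 4, which held acinar markers at the level of ethanol-fed mice, had 74.1 and 79.8 CPM of Dnajb9. Without the acinar-rich KI_Con libraries 1 and 2 the difference was -0.56 with an edgeR adjusted p of 0.0189, and Dnajb9 was then the only member called (15.1% of genes). With plasma cell markers as a covariate it was -0.40, with an edgeR adjusted p of 0.318, and 0 members and 0.0413% of genes passed. These markers separated the groups themselves (7010 to 9350 against 1450 to 5830 CPM), so plasma cell content and diet cannot be told apart here.

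One effect of the 2.5% regimen fitted over both genotypes, with 21 libraries, gave Dnajb9 -0.68 ± 0.11, with an edgeR adjusted p of 0.000174, and Manf 0.35 ± 0.11, with an adjusted p of 0.0137. These were 2 of the 10 members, and 39.2% of all genes passed in that fit. Dnajb9 was the only member that was lower without overlap in all 3 ethanol against control comparisons, as were 0.41% of the 16831 genes tested in all 3. WT_Full vs WT_Con and WT_Half vs WT_Con share their control libraries, so they are not separate observations of it.

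Manf was at 136, 133, 137 and 159 CPM in KI_Con and ran from 171 to 199 CPM with a median of 187 CPM in KI_Half. All 6 KI_Half libraries were above all 4 KI_Con libraries, and 13.5% of genes were separated in that direction. The log2 difference was 0.41 ± 0.08 with an edgeR adjusted p of 0.00294. Without the acinar-rich control libraries it was 0.34 with an edgeR adjusted p of 0.0642 (15.1% of genes called). In 1 fit of all 25 libraries it was 0.40 with an edgeR adjusted p of 0.114 (32% of genes called).

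Xbp1 was at 226, 258, 258 and 250 CPM in KI_Con. In KI_Half libraries 1, 2, 3, 5, 6 and 7 it was at 429, 305, 626, 487, 251 and 275 CPM, so 3 libraries were far above the controls, 2 were somewhat above and library 6 was within their range. The log2 difference was 0.68 ± 0.24 with an edgeR adjusted p of 0.0411. The call was lost in 7 of the 10 fits that left out 1 library: each of the 4 KI_Con libraries and KI_Half libraries 1, 3 and 5. In those 7 fits 29% to 35.3% of all genes passed, against 37.9% in the main fit. Without KI_Half library 3 the difference was 0.51 and the adjusted p 0.0589. The call was also lost with the acinar covariate (0.62, edgeR adjusted p 0.192, 17.8% of genes called) and without the acinar-rich controls (0.64, 0.208, 15.1%). With the plasma cell covariate it was lost too (0.69, edgeR adjusted p 0.574, 0.0413% of genes called). Fewer genes passed in these fits than the 37.9% of the main fit, while the log2 difference of Xbp1 was 0.62 to 0.69. With Muc6 as a covariate it was 0.71, with an edgeR adjusted p of 0.0344.

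Hspa5, the BiP gene, was at 588, 719, 662 and 769 CPM in KI_Con and ran from 714 to 891 CPM with a median of 834 CPM in KI_Half. The groups overlapped, and the log2 difference was 0.26 ± 0.10 with an edgeR adjusted p of 0.0521, just over the threshold. DESeq2 (adjusted p 0.0336, 41.7% of genes) and limma-voom (0.0131, 46.6%) called Hspa5 higher. EdgeR did not in 1 fit of all 25 libraries (0.255, adjusted p 0.438, 32% of genes) or with the acinar covariate (0.172, 0.361, 17.8%). Nor did it without the acinar-rich controls (0.197, 0.294, 15.1%) or with the plasma cell covariate (0.175, 0.719, 0.0413%). Of the remaining 6 members, Hsp90b1 had an interval from -0.22 to 0.15, Creld2 from -0.09 to 0.37, Hyou1 from -0.09 to 0.41 and Herpud1 from -0.34 to 0.36. Sdf2l1 and Pdia4 had wider intervals, from -0.74 to 0.21 and from -0.51 to 0.35. Both had their lowest level of all 25 libraries in KI_Half library 5, at 25.4 and 54.2 CPM. Each of the 7 genes that varied together had a smaller SD in KI_Half than in WT_Half, for Creld2 6.17 against 33.9 CPM and for Manf 8.86 against 47.2 CPM. The difference between these spreads was not tested.

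Genotype was compared at each diet. In KI_Half vs WT_Half edgeR called 0 of 10 members and 0% of 16907 genes, with 1 member (Xbp1) and 14.2% of genes at an unadjusted p under 0.05. DESeq2 called 0 members and 1.01% of genes. Xbp1 was 0.53 ± 0.19 higher on the log2 scale, with an edgeR adjusted p of 0.292. WT_Half ran from 219 to 332 CPM, so KI_Half libraries 1, 3 and 5 stood above every wild-type library of that diet. The authors' deposited table gave 0.53 and an adjusted p of 0.127 for Xbp1, where 211 of 16967 genes were under 0.05. For Dnajb9 the groups were level, with a log2 difference of 0.00 and an interval from -0.34 to 0.35. In KI_Con vs WT_Con edgeR called 0 of 10 members and 0% of 16813 genes, and 0 members and 9.90% of genes had an unadjusted p under 0.05. DESeq2 called 0 members and 0.0684% of genes. There 9 of 10 members had log2 differences below 0 (lower in the knock-in controls), with a median log2 difference of -0.17, against -0.02 over all genes. Pdia4 had the largest, -0.37 ± 0.19. WT_Con libraries 3 and 4, with Muc6 at 21350 and 12440 CPM, had the 2 highest levels of the control groups for 7 members. The exceptions were Creld2, highest in KI_Con library 4, Herpud1, highest in KI_Con library 1, and Dnajb9, highest in WT_Con library 1.

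Whether the response to the 2.5% regimen differed between genotypes was tested with an interaction term over 21 libraries. EdgeR called 0 of 10 members and 0% of 17006 genes, with 1 member (Xbp1) and 12.7% of genes at an unadjusted p under 0.05. DESeq2 called 0 members and 0.225% of genes. Xbp1 had an interaction of 0.83 ± 0.29 on the log2 scale, with an edgeR adjusted p of 0.334. Limma-voom called it (0.83, adjusted p 0.0478), 1 member beside 6.69% of genes. For Dnajb9 the term was 0.22 ± 0.23, with an interval from -0.25 to 0.70, and for Manf 0.12 ± 0.21, with an interval from -0.32 to 0.56, so a different response of these genes in the 2 genotypes was not detected.

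Brunner gland content was followed through Muc6. In WT_Con it was at 3397, 11.9, 21350 and 12440 CPM, in KI_Con at 69.5, 17.5, 4556 and 444 CPM and in WT_Full at 2631, 15.5, 17.9 and 6.73 CPM. WT_Half ran from 17.5 to 7193 CPM (median 47.6 CPM) and KI_Half from 14.9 to 2970 CPM (median 118 CPM). Libraries with high and with low Muc6 thus occurred in every group, and a slope on log2 Muc6 could be fitted within groups over all 25 libraries.

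All 10 members had a slope above 0, from 0.004 for Herpud1 to 0.054 for Sdf2l1 in log2 units per log2 unit of Muc6. Their median slope was 0.039, against -0.00 over all genes. EdgeR called 0 of the 10, where 1.16% of 17006 genes passed, nearly all of them with a positive slope (1.14% of genes). DESeq2 called 0 members and 1.85% of genes, and limma-voom 0 members and 1.92% of genes. At an unadjusted p under 0.05 were 2 members, beside 6.64% of all genes: Xbp1, with 0.046 ± 0.017 and an edgeR adjusted p of 0.384, and Pdia4, with 0.051 ± 0.025 and an adjusted p of 0.746. For Hspa5 the slope was 0.038 ± 0.021, with an interval from -0.005 to 0.082. These slopes are per log2 unit of Muc6, which spanned 3170-fold over the libraries, so they add up over that range. In WT_Con libraries 1 to 4, Hspa5 was at 559, 641, 1022 and 873 CPM, so it was highest in libraries 3 and 4 with the most Muc6 and lowest in library 1, which had more Muc6 than library 2. In WT_Full libraries 1 to 4 it was at 1337, 848, 1223 and 522 CPM, highest in library 1 with the most Muc6 and lowest in library 4 with the least, while library 3 was high at a Muc6 level of 17.9 CPM. With Muc6 as a covariate, 3 members were called in KI_Half vs KI_Con (34.7% of genes), and Dnajb9 had a log2 difference of -0.56 there. In WT_Half vs WT_Con (0.0471% of genes) and WT_Full vs WT_Con (0%) that covariate left 0 members called. Dnajb9 was at -0.67 (edgeR adjusted p 0.252) and -0.99 (0.265) in these. In WT_Full vs WT_Con the covariate moved Sdf2l1 from 0.73 to 1.14, Creld2 from 0.80 to 1.10, Manf from 0.56 to 0.84 and Hsp90b1 from 0.57 to 0.72. Herpud1 moved from -0.68 to -0.65.

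**Figure D4:**
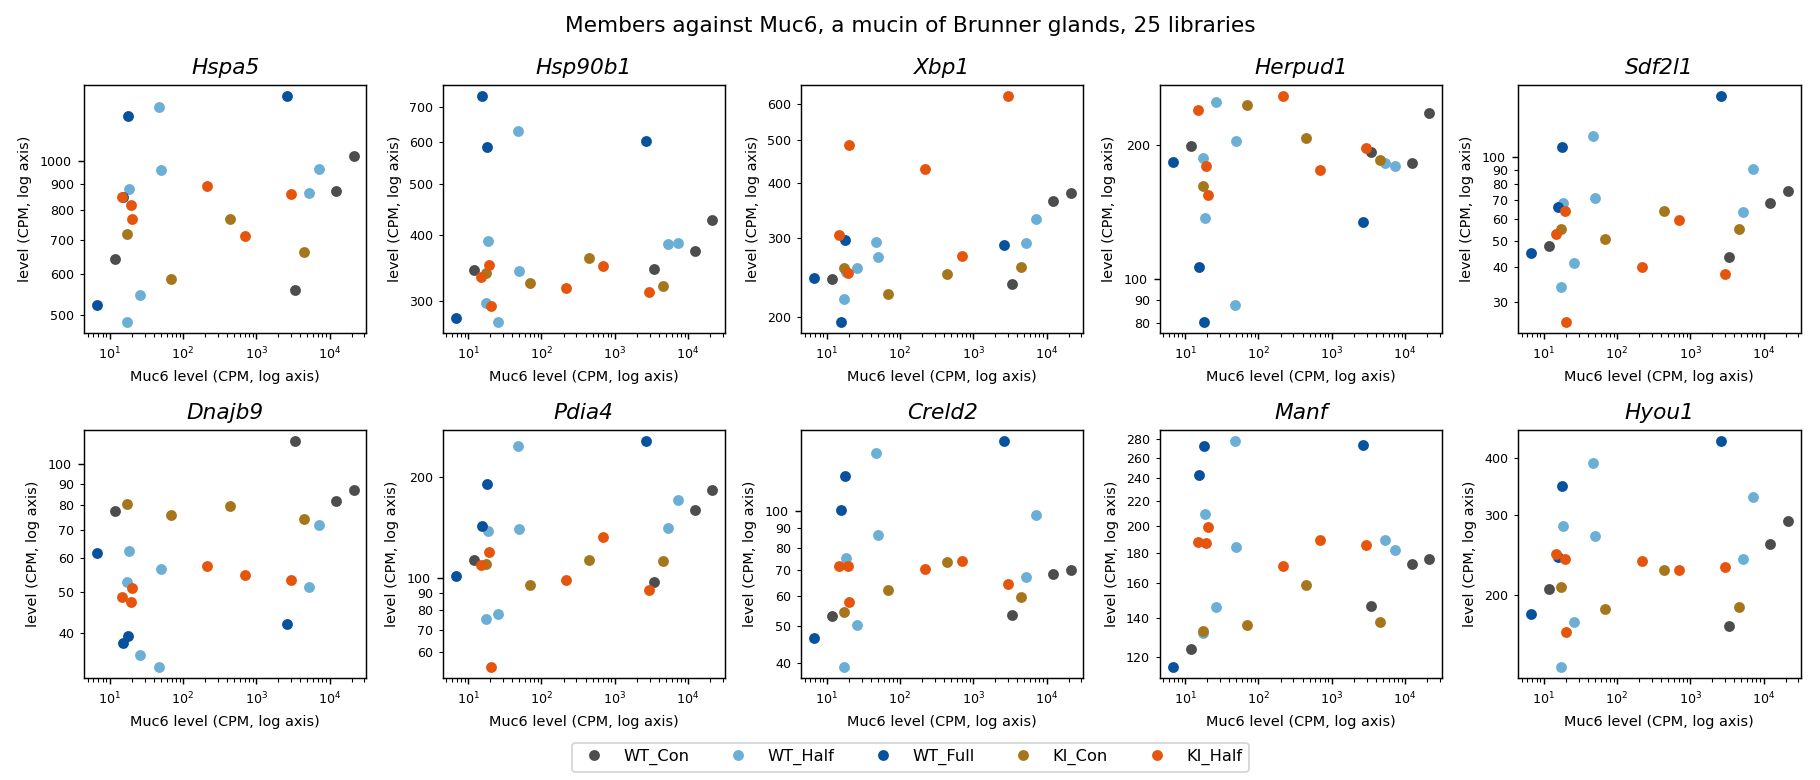
Level of each member (vertical log axis, CPM) against Muc6 (horizontal log axis, CPM) in the 25 libraries, coloured by group. Muc6 spans 6.73 to 21400 CPM while no member spans more than 6.56-fold. At low Muc6, Hspa5 is both high (1223 CPM in WT_Full library 3) and low (522 CPM in WT_Full library 4). In WT_Con libraries 3 and 4, with the most Muc6, it is at 1022 and 873 CPM.

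Some other genes of the same pathways had slopes on Muc6 that passed the threshold. Of 17 sensors and regulators of the unfolded protein response, 4 had a called positive slope and none a negative one. They were led by Creb3l4 (0.31, edgeR adjusted p 2.57e-07), Creb3l1 (0.25, 1.36e-06) and Ern2 (0.19, 6.22e-06). Creb3l1 and Creb3l4 encode membrane-bound transcription factors related to ATF6, and Ern2 encodes the IRE1 form of mucous epithelium. Among 19 other chaperones and cochaperones 2 passed, Dnajc10 (0.14, adjusted p 0.000433) and Sil1 (0.08, 0.00212). Among 18 disulfide formation genes the calls were Pdia5 (0.13, 0.000297) and Agr2 (0.21, 0.00212), the latter a disulfide isomerase known for mucin folding. In ER to Golgi transport, Tmed3, a cargo receptor, was the 1 called gene of 23 (0.12, 4.38e-05). None of 20 degradation genes and none of 25 translocation and N-glycosylation genes passed, though all 25 of the latter had slopes above 0, with a median of 0.02. With 1.16% of all genes called, 0 calls among 10 members is near the background and does not set the members apart. The lists were chosen with earlier results of these data known, so the regulators' 4 of 17 is a description.

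The same lists gave 0 calls in edgeR in every comparison between groups apart from KI_Half vs KI_Con, and 0 in the interaction. In KI_Half vs KI_Con, where 37.9% of genes passed, 15 of the 25 translocation and N-glycosylation genes were higher and 0 lower. They were led by Ssr1 (0.80, edgeR adjusted p 0.00100) and Ssr2 (0.47, 0.00217), subunits of the translocon-associated complex, and Rpn1 (0.53, 0.00159), a subunit of oligosaccharyltransferase. Of 20 degradation genes 1 was higher and 7 lower, and 12 did not pass, with Edem1 (-0.46, 0.00185), Fam8a1 (-0.75, 0.00245) and Erlec1 (-0.62, 0.00395) lower. Of the sensors and regulators, 2 were higher and 3 lower of 17. Atf4, the effector of PERK, was higher (0.89, 0.00181), while Wfs1 (-0.77, 0.000350) and Creb3l2 (-0.89, 0.000416) were lower.

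The other chaperones had 4 higher and 2 lower of 19 in KI_Half vs KI_Con. Serp1, which stabilises new membrane proteins (0.37, edgeR adjusted p 0.00710), and Ppib, a prolyl isomerase (0.34, 0.0131), were higher and Dnajb12 (-0.48, 0.00915) lower. Disulfide formation genes had 3 higher and 2 lower of 18, with Qsox1 (1.34, 0.00211) and Pdia6 (0.41, 0.00360) higher and Ero1b (-1.20, 0.00280), the oxidase of secretory cells such as those of the pancreas, lower. KI_Con libraries 1 and 2 held acinar RNA, and the part of it in these list values was not tested. ER to Golgi transport genes had 4 higher and 5 lower of 23, with Tmed9 (0.76, 0.00173) and Tmed2 (0.41, 0.0112) higher and Sec31a (-0.52, 0.00882) lower. The lists thus held genes that moved in both directions, as did the members, apart from translocation and N-glycosylation, where every call was an increase.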

How the data were processed

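Polyadenylated RNA of 25 duodenum libraries was analysed. Per the submitters' processing notes, the tools were FastQC, Trimmomatic, HISAT2, SAMtools, featureCounts and DESeq2 with build GRCm38. On versions, strand setting and annotation release the sources used here say nothing. The authors deposited whole-number counts per gene, not normalised, in 2 tables with equal counts, and per the file headers their own log2 fold changes and adjusted p-values for WT_Full vs WT_Con and KI_Half vs WT_Half. Each table had 17220 lines for 17007 identifiers, and 213 repeats with equal counts were merged. Positions and exon lengths came from GENCODE M21, which held 16995 of the identifiers.

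The main analysis used edgeR 4.0.16 (R 4.3.3) with TMM factors, its filterByExpr step on low counts, the two-sided quasi-likelihood F test on all genes, and Benjamini-Hochberg adjusted p under 0.05. All 10 members passed the filter in every comparison. Each comparison used its own 2 groups. Intervals are 95%. Levels are TMM CPM over all libraries, and log2 levels use a pseudocount of 1. Alternatives were DESeq2 1.42.0, limma 3.58.1 (voom with sample weights), other size factors, no filter, other sets of libraries, covariates for Muc6 and acinar markers, a replicate block and leaving out each library. Plasma cell covariates, leaving out control libraries above 100 CPM of acinar markers, and 1 effect over both genotypes were chosen after seeing the data. The steps were tested on simulated counts. The 54 pairs of libraries within groups all differed beyond sampling noise (smallest chi-square per gene 30.8).

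The members, the lists and the motifs were chosen with earlier results of these data known. Genes outside the members were named by rule: the 6 most correlated with the members' mean among genes of average log2 CPM of at least 1, up to 3 called genes with the smallest p per list and comparison, and per list the 3 with the smallest p of the Muc6 slope, of which those past the threshold are given. The protein endings that keep chaperones in the endoplasmic reticulum were planned and not analysed here.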

Additional observations from a re-analysis of the deposited data

Results flagged for a closer look

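Of 55 sets of libraries checked (11 genes in 5 groups), 6 held a library that stood far from the others of its group. The rule flags about 1 in 20 sets when values are normally distributed and the sets independent. Muc6 ran from 6.73 to 21400 CPM and 7 of the members varied together, so 6 of 55 cannot be set against that rate. Hsp90b1 in WT_Half library 1 was at 630 CPM, with the next library at 390 CPM. Pdia4 in KI_Con library 1 was at 95.3 CPM, below the next at 110 CPM, a gap that is wide only beside the narrow spread of that group. Hyou1 in KI_Half library 5 was at 166 CPM, with the next at 228 CPM, in the same library that had the lowest Pdia4 and Sdf2l1. The remaining 3 were Muc6: 4560 CPM in KI_Con library 3 (next 444 CPM), 2970 CPM in KI_Half library 3 (next 696 CPM) and 2630 CPM in WT_Full library 1 (next 17.9 CPM). In KI_Con library 3, Hspa5 was at 662 CPM and Xbp1 at 258 CPM, inside their group, whereas KI_Half library 3 also had the highest Xbp1 level of all 25 libraries.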

How the results depend on the processing

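Group sizes of 4 to 7 libraries and differences in tissue content limit all values. In WT_Full vs WT_Con the count of members called was 0 in edgeR, 1 in DESeq2, 2 in limma-voom (Herpud1 and Dnajb9), 1 in 1 fit of all 25 libraries and 0 to 5 when leaving out 1 library (5 without WT_Full replicate 4). In WT_Half vs WT_Con it was 0 in edgeR, 1 (Dnajb9) in DESeq2, limma-voom and the fit of 25 libraries, and 0 to 1 when leaving out 1 library. The fit of 1 effect over both genotypes, which also holds the knock-in libraries, called 2 (Dnajb9 and Manf) beside 39.2% of genes. In the wild type alone Manf had an edgeR adjusted p of 0.372. In both WT_Full vs WT_Con and WT_Half vs WT_Con the count was 0 with the Muc6, the acinar or the plasma cell covariate. At most 0.106% of genes passed in those fits. In KI_Half vs KI_Con it was 3 (37.9% of genes), 1 without the acinar-rich controls (15.1%) and 0 with the plasma cell covariate (0.0413%). It was 2 to 4 when leaving out 1 library (29% to 44.2%). The interaction had 0, 1 (Xbp1) by limma-voom, and 0 in each fit without 1 library. Leaving out 1 library also gave 0 members throughout in WT_Full vs WT_Half, KI_Half vs WT_Half, KI_Con vs WT_Con and the Muc6 slope. Hspa5 in KI_Half vs KI_Con ran from 0.20 to 0.32 over those fits, with edgeR adjusted p from 0.0256 to 0.162.

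Some signs reversed. Dnajb9 in KI_Half vs WT_Half (0.00) was -0.067 in limma-voom, -0.082 with the acinar covariate and -0.085 to 0.113 when leaving out 1 library. On the Muc6 slope, Hsp90b1 was 0.00 without the group term, Herpud1 -0.001 to 0.014 when leaving out 1 library, and in KI_Half alone Sdf2l1 was -0.013 (0.054 over all groups) and Manf -0.005.

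Same-numbered libraries were not taken as pairs, since in no comparison were all pairs correlated over 0.1 in their deviations: 1 of 4 in WT_Full vs WT_Con, 0 of 4 in WT_Half vs WT_Con, 1 of 4 in WT_Full vs WT_Half, 0 of 6 in KI_Half vs WT_Half, 1 of 3 in KI_Half vs KI_Con and 3 of 4 in KI_Con vs WT_Con (from 0.02 to 0.28). With the replicate block, 4 members (Hspa5, Xbp1, Dnajb9 and Manf) were called in KI_Half vs KI_Con beside 36.4% of genes. In every other comparison, the interaction and the Muc6 slope 0 were called, beside at most 0.776% of genes.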
